A study of Eriocheir sinensis with 2 samples.

Results

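The cytosolic ribosomal proteins of the Chinese mitten crab *Eriocheir sinensis* were described in the Y-organ, the gland that secretes the precursor of ecdysone, the moulting hormone. The C0 library came from untreated crabs and the C1 library from crabs whose eyestalk was ablated, and both Y-organ samples were taken after 48 h. There were 30 crabs in each group, each of 5 to 6 g, kept in fresh water at 18 to 20 °C for 3 to 5 days before the start. Removal of the eyestalk takes away the neurohormone source that holds the Y-organ back. The sources describe no sham operation, so C1 carries the wound as well as the loss of the eyestalk. Each group was sequenced as 1 library, so no difference has a replicate check, and each test compares the 2 libraries and not the conditions. In bulk tissue, fewer cells of a type and less RNA per cell cannot be told apart.

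The members are unigenes, the assembled transcript sequences to which the reads were mapped. A unigene was taken when its best protein hit was named a ribosomal protein and the name held none of the words mitochondrial, kinase, ubiquitin and methyltransferase. Of 167 unigenes with a ribosomal protein name, 37 were left out as mitochondrial and 9 as kinases, and 13 more because the best hit came from 1 of 6 genera of ciliates. The remaining 108 of 47966 unigenes were the members. The uniquely mapped reads numbered 4.15 M in C0 and 3.75 M in C1 (M for 1000000). The unigenes have no genome coordinates and no sequence is shown.

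A cytosolic ribosome is built from a small (40S) and a large (60S) subunit, each a core of ribosomal RNA with many small, basic proteins on it. The small subunit reads the mRNA and the large subunit joins the amino acids. Cells keep the proteins of both subunits in near equal numbers, and their mRNAs are among the most abundant of a secretory or growing tissue.

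The tissue label was checked first. An annotated ecdysone biosynthesis protein, Unigene19254_A0A, had 277318 C0 reads and 259118 C1 reads. The 3 unigenes with ecdysteroid synthesis names took 6.69% of C0 reads (277643) and 6.93% of C1 reads (259777), nearly all on Unigene19254_A0A. The next of them, Unigene1867_A0A, named dib, had 323 C0 reads and 654 C1 reads. By words in the annotation, the 30 muscle unigenes took 0.175% and 0.121%, the 21 hemocyte unigenes 0.341% and 0.443%, the 24 epidermis unigenes 0.0572% and 0.113%, and the 14 hepatopancreas unigenes 0.0140% and 0.0145%. The hepatopancreas words also caught a tubulin polyglutamylase, with 85 C0 reads and 77 C1 reads, and an inter-alpha trypsin inhibitor, with 8 and 7. Without 2 unigenes named non-muscle myosin, the muscle shares were 0.142% and 0.0808%. Without 2 anti-lipopolysaccharide factors the hemocyte shares were 0.0725% and 0.0525%, and without the cuticle protein AMP9.3 the epidermis shares were 0.0105% and 0.00925%, so the higher C1 shares of both lists rested on these unigenes. Unigenes whose best hit was a ciliate took 0.783% of C0 reads and 0.275% of C1 reads. The part of these other sources in the values of the members was not tested, except where values are given beside a result.

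Ribosomal protein transcripts took a smaller share of the C1 library than of the C0 library. In C0 the members held 329145 reads, which is 7.93% of the library (95% Wilson interval 7.90 to 7.95%). In C1 they held 235713 reads, which is 6.28% (6.26 to 6.31%). The log2 ratio (C1/C0) of the summed reads was -0.33 (-0.34 to -0.33). These intervals, like all below, cover counting error only and no spread between replicates. They take each read as independent, which PCR copies are not. Of the 100 unigenes with the highest RPKM (reads scaled to the length of the unigene and to the reads of the library), 50 in C0 and 39 in C1 were members.

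The members divided by their number of reads, in classes chosen after the values were seen. There were 61 abundant members with a total of at least 1000 reads, and they held 99.6% of the members' reads in C0. A further 17 had between 28 and 278 reads, and 30 had between 1 and 5. All 30 sparse members together had 45 C0 reads and 26 C1 reads, with reads only in C0 for 13 of them and only in C1 for 3. No ratio of a single sparse member was read. Except in an alternative with at least 1 read, given near the end, the sections below rest on the 78 members with at least 10 reads. Among these, the log2 ratio was below 0 for 70 and above 0 for 8, with a median of -0.38. Over all unigenes with at least 10 reads the ratio was below 0 in 41.3% and the median was 0.15. All members have an annotation, and the 8957 other annotated unigenes of this depth were below 0 in 53.4%, with a median of -0.07.

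A differentially expressed unigene (DEU) had an adjusted p of at most 0.001 by the exact binomial test and an absolute log2 ratio over 1. Of the members, 9 were DEUs with a lower level in C1, against 1.70% of all unigenes, and 0 were DEUs with a higher level, against 2.32%. None of the 61 abundant members was a DEU with library totals, while TMM and median ratio scaling each called 2 of them. All 9 belonged to the 17 members with 28 to 278 reads. The abundant and the less abundant members are therefore described apart, and the plot of ratio against reads shows both.

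**Figure D1:**
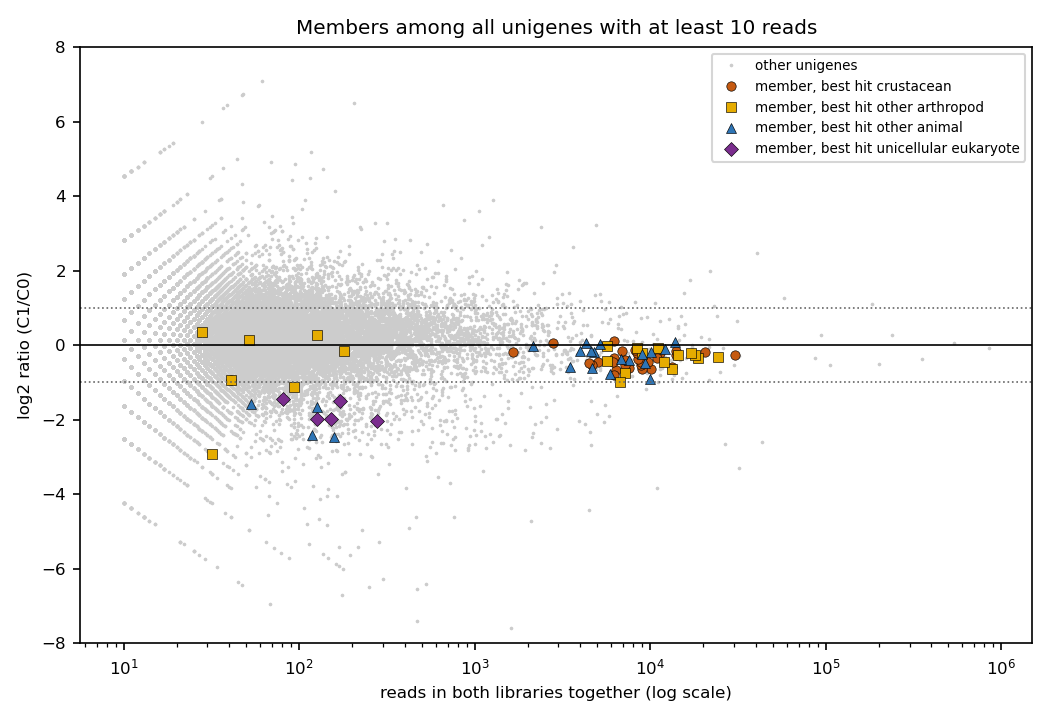
The log2 ratio (C1/C0) of each unigene with at least 10 reads is plotted against its reads in both libraries on a log axis, with members coloured by the kind of species that gave the best hit and other unigenes in grey. Dotted lines mark a log2 ratio of 1 and -1. The 61 abundant members lie in a narrow band, mostly below 0, and members with a unicellular best hit lie at 278 reads or fewer and below -1.

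The abundant members named 59 of the 79 protein families that animal cytosolic ribosomes contain. They were 23 unigenes of the small subunit and 38 of the large, with L23 and the stalk protein P2 on 2 unigenes each. Each of the other families had 1 abundant unigene. The families S2, S28, L5, L18, L18A, L21, L23A and L37 were named only by members with fewer reads, and SA, S3, S15A, S16, S17, S27A, S29, L7A, L19, L22, L40 and L41 by no member. The match rests on names in the annotation alone. It does not show whether transcripts of these 12 families were present, and they were not analysed here. L5, which is carried into the 60S together with L11 and the 5S RNA, was named only by Unigene27639_A0A, with 1 read in C0 and 0 in C1. A further 5 members had a name that matched no family. Among them, Unigene16265_A0A is named 50S ribosomal protein L1, a bacterial type of name, so it need not be a cytosolic protein. It had 100 C0 reads and 81 C1 reads and was kept among the members.

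On the length-corrected scale most of these proteins stood at similar levels. The abundant members had RPKM from 553 to 9647 in C0, with a median of 1885, and from 487 to 8111 in C1, with a median of 1499. Their order changed little between the libraries, with a Spearman correlation of 0.918 over the 61 members, which share the 2 libraries. Reads covered a median of 97.3% of the length of the unigene in C0. The level of 1 protein stood apart from the rest.

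That protein was L36A, which lies near the exit site of the 60S and is named L44e in the annotation. Unigene21098_A0A reached an RPKM of 9647 (C0) and 8111 (C1), from 17306 and 13143 reads. Its log2 ratio was -0.25 (-0.28 to -0.22). The next highest in C0 was L27A of the 60S, with 4242 in C0 and 3703 in C1, less than the L36A level in either library. S18, in the head of the 40S, reached 3667 (C0) and 3276 (C1).

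L34 of the 60S had 3150 in C0 and 2268 in C1, so it was about level with L35A in C0 but not in C1. L35A, also of the 60S, had 3142 and 2970. S25, a 40S protein that some viral mRNAs need for their start, had 3052 and 2640. All 6 had lower RPKM in C1, and their log2 ratios ran from -0.08 for L35A to -0.47 for L34. They were taken for a high C0 RPKM, which favours a lower value in C1, and 56 of the 61 abundant members had a ratio below 0.

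**Figure D2:**
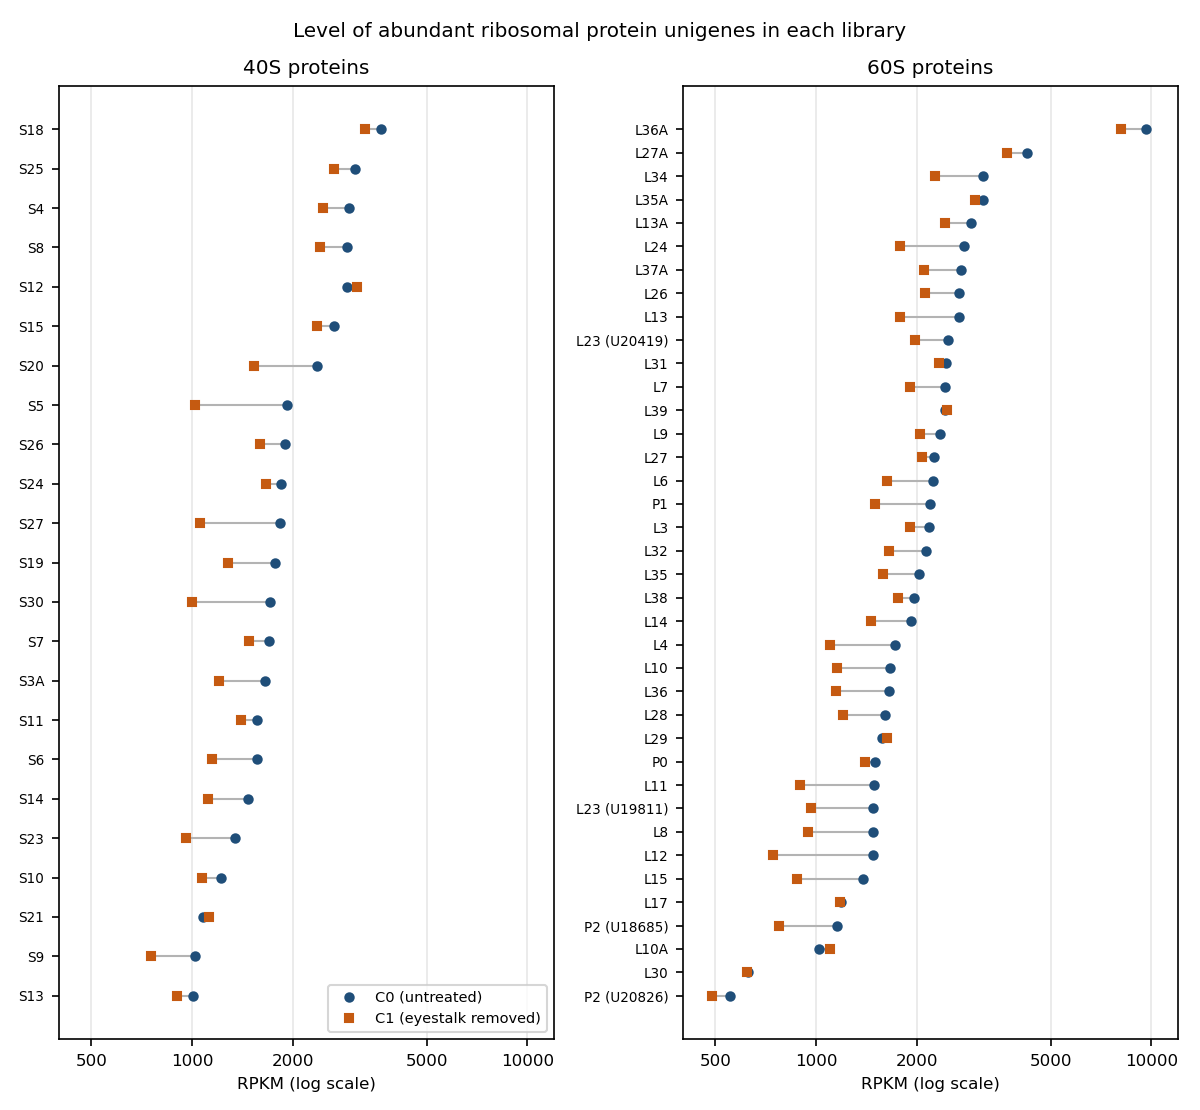
The RPKM of each of the 61 abundant members is plotted on a log axis for C0 (circles) and C1 (squares), with 40S proteins on the left and 60S proteins on the right, sorted by C0. L36A stands alone at 9647 and 8111, and for most proteins the C1 square lies to the left of the C0 circle.

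The difference between the libraries was small and in 1 direction for most of the abundant members. Of the 61, 56 had a log2 ratio below 0, against 52.3% of all unigenes with at least 1000 reads. The median was -0.34, the middle 50% ran from -0.52 to -0.16 and the range was -0.99 to 0.11. The counting interval lay wholly below 0 for 54 members, against 47.3% of the abundant unigenes, wholly above 0 for 2 and across 0 for 5. An adjusted p of at most 0.001 with a lower level was found for 48 members, so it was the fold that kept them from being DEUs. At this depth, 76.7% of all abundant unigenes had an adjusted p of at most 0.001 in either direction.

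The spread of the abundant members was also narrow. The SD of their log2 ratios was 0.25, while the other 597 unigenes with at least 1000 reads had an SD of 1.06 and a median of 0.06. A log2 ratio below -0.5 was found for 16 abundant members, against 23.6% of all abundant unigenes, and above 0.5 for 0, against 27.1%. The share below -0.5 was therefore near the background, and none of the members had a high ratio. Over the 70 members with at least 100 reads, 23 lay below -0.5 and 0 above 0.5, against 18.9% and 32.2% of all unigenes of that depth. The share of DEUs with a lower level among all abundant unigenes was 8.81%.

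**Figure D3:**
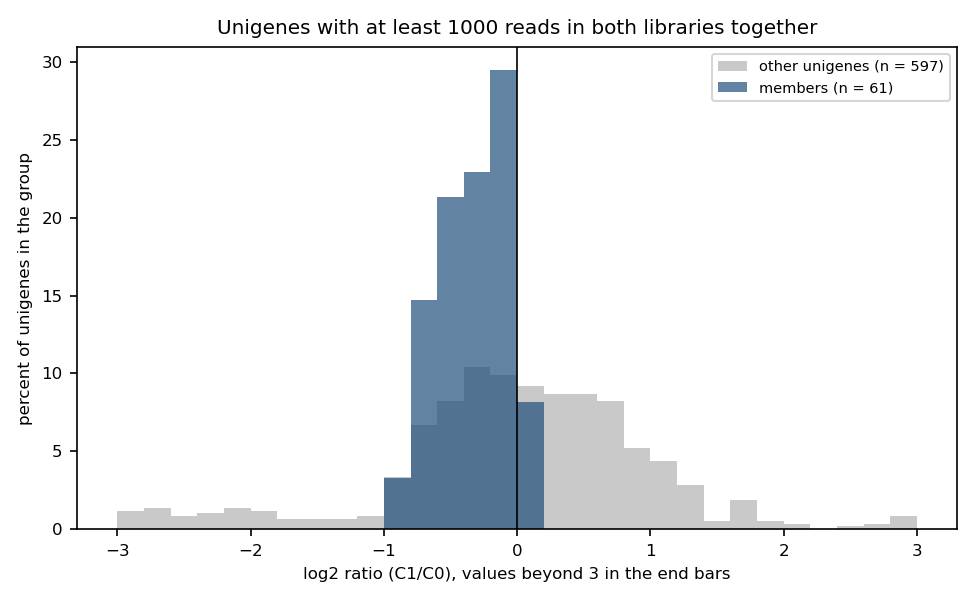
The percent of unigenes in each step of log2 ratio (C1/C0) is shown for the 61 abundant members and the 597 other unigenes with at least 1000 reads, with values beyond 3 in the end bars. The members lie between -0.99 and 0.11, inside the wider spread of the others.

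The shift was also compared at like depth. The 50 members with at least 5000 reads had a median of -0.35, and 47 of them were below 0. The other 125 unigenes of this depth had a median of -0.21, with 33 below -0.5 and 30 above 0.5, and 60.8% were below 0. The 80 of them with an annotation had a median of -0.05, and 53.8% were below 0. From 1000 to under 5000 reads the 11 members had a median of -0.18 and the other 472 unigenes a median of 0.12.

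**Figure D4:**
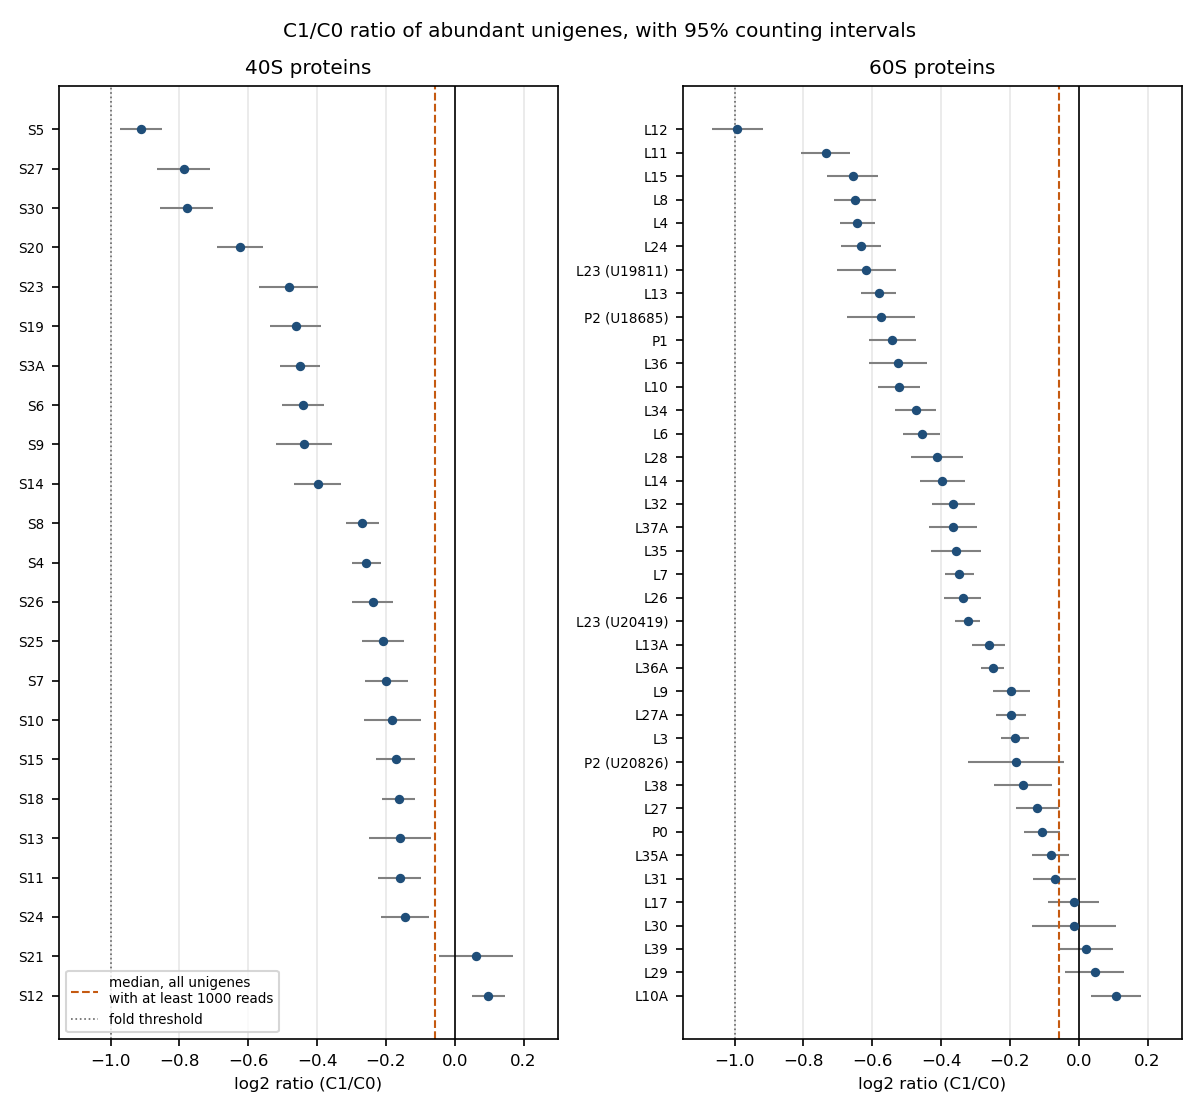
The log2 ratio (C1/C0) of the 61 abundant members is plotted with its 95% counting interval, 40S proteins on the left and 60S proteins on the right. The dashed line is the median of all unigenes with at least 1000 reads (-0.06) and the dotted line the fold threshold of -1, which 0 of the 61 values pass, with L12 (-0.99) nearest to it.

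The subunits shifted by similar amounts. The 23 abundant 40S unigenes took 2.72% of C0 reads and 2.18% of C1 reads, a log2 ratio of -0.32 (-0.33 to -0.30). The 38 abundant 60S unigenes took 5.17% and 4.09%, a log2 ratio of -0.34 (-0.35 to -0.33). The medians over single unigenes were -0.26 and -0.35. Ratios below 0 were found for 21 of the 23 and 35 of the 38.

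In the 40S, the lowest ratio was that of S5, a protein of the head near the mRNA exit. S5 and L12 were picked out after their values were seen. S5 (Unigene20694_A0A) had 6756 C0 reads and 3244 C1 reads, and RPKM of 1914 and 1018. Its log2 ratio was -0.91 (-0.97 to -0.85), or 1.88-fold lower. S27, a zinc-binding protein, had 4055 and 2121 reads and a log2 ratio of -0.79 (-0.86 to -0.71).

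S30, made in mammals as a fusion with a ubiquitin-like protein, had 3877 C0 reads and 2040 C1 reads. Its log2 ratio was -0.78 (-0.86 to -0.70), and its interval overlapped that of S27. S6, the protein phosphorylated by the S6 kinases, had 5341 and 3554 reads and a log2 ratio of -0.44 (-0.50 to -0.38). At the other end were S12, of the beak of the 40S, and S21. S12 (Unigene20618_A0A) had 7027 C0 reads and 6791 C1 reads, with RPKM of 2893 and 3095 and a log2 ratio of 0.10 (0.05 to 0.15). S21 had 1429 and 1346 reads and a log2 ratio of 0.06, with an interval from -0.05 to 0.17 that covers 0.

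In the 60S, the lowest ratio was that of L12, at the base of the stalk that receives the elongation factors. L12 (Unigene20102_A0A) had 4647 C0 reads and 2109 C1 reads, and RPKM of 1472 and 740. Its log2 ratio was -0.99 (-1.07 to -0.92), or 1.99-fold lower, just short of the fold of a DEU. The stalk itself is made of P0, which is anchored in the ribosome, and of P1 and P2, which are bound to P0.

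P0 (Unigene19620_A0A) had 6619 C0 reads and 5553 C1 reads and a log2 ratio of -0.11 (-0.16 to -0.06). P1 (Unigene20310_A0A) had 4431 and 2749 and a log2 ratio of -0.54 (-0.61 to -0.47). P2 (Unigene18685_A0A) had 2185 and 1325 and a log2 ratio of -0.57 (-0.67 to -0.48). The intervals of P1 and P2 overlapped each other and lay below that of P0. The other P2 unigene (Unigene20826_A0A) had 925 and 736 reads and a log2 ratio of -0.18 (-0.32 to -0.04), which overlapped P0.

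L11, which binds the 5S RNA and, in mammals, the regulator of p53, had 4665 C0 reads and 2530 C1 reads and a log2 ratio of -0.74 (-0.81 to -0.67). L10, which joins the 60S late in its assembly, had 5469 and 3440 reads and a log2 ratio of -0.52 (-0.58 to -0.46). L10A, of the side stalk by which used tRNA leaves, had 3154 and 3070 reads and a log2 ratio of 0.11 (0.04 to 0.18). L29 had 2237 and 2087 reads and a log2 ratio of 0.05 (-0.04 to 0.13), and L39, in the wall of the exit tunnel, had 2691 and 2468 and a log2 ratio of 0.02 (-0.06 to 0.10). L10A, L29 and L39, with S12 and S21, were the 5 abundant members above 0, and all 5 turned negative with TMM or median ratio scaling, which shift every unigene alike by -0.17 or -0.15. Under these, 61 of 61 abundant members were below 0, against 60.6% and 58.8% of all abundant unigenes.

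The 17 members with 28 to 278 reads differed more between the libraries. They had 1372 C0 reads and 485 C1 reads, a log2 ratio of -1.35 (-1.50 to -1.20), and held 0.417% of the members' C0 reads. The median was -1.50, while all unigenes with 10 to under 1000 reads had a median of 0.15. The 9 DEUs among them compare with 2.55% of all unigenes with 10 to under 1000 reads called with a lower level. That range is not matched in depth to these members. Of the 30436 unigenes with at least 10 reads, 6183 had at least 100, and fewer reads make the threshold harder to reach. The adjusted p of the 9 DEUs by the exact binomial test ran from 1.14e-22 to 0.000554. Their lengths ran from 201 to 440 bases, and their summed reads were 1010 in C0 and 232 in C1. If a coefficient of variation between replicates of 0.2 is assumed, 1 member is called, and at 0.4, 0 are called, while 194 and 7 of all 47966 unigenes are called with a lower level.

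Of these DEUs, 2 carried names of 40S proteins and 7 of 60S proteins, each taken from the best hit. For those named S14, L4, L3 and L10 and for Unigene33560_A0A (L11), that hit was a unicellular eukaryote, so they need not be crab transcripts. S20 of the head (Unigene43217_A0A) had 136 C0 reads and 22 C1 reads and a log2 ratio of -2.45 (-3.13 to -1.84). S14 of the platform (Unigene3498_A0A) had 123 and 28 reads and a log2 ratio of -1.97 (-2.58 to -1.40). L4, which lines the exit tunnel (Unigene5230_A0A), had 228 and 50 reads and a log2 ratio of -2.03 (-2.48 to -1.60).

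L3, which reaches toward the site of peptide bond formation, was the name of the DEU Unigene22547_A0A (best hit Capsaspora). This unigene had 129 C0 reads and 41 C1 reads and a log2 ratio of -1.50 (-2.01 to -1.003). L10 was the name of the DEU Unigene26997_A0A (best hit Cryptosporidium), with 103 and 23 reads and a log2 ratio of -1.99 (-2.66 to -1.37). L11 was the name of 2 DEUs. Unigene34321_A0A had 102 and 17 reads and a log2 ratio of -2.40 (-3.17 to -1.71), and Unigene33560_A0A had 61 and 20 and a log2 ratio of -1.44 (-2.18 to -0.74). Their intervals overlapped.

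The stalk protein P1 was a DEU on Unigene39079_A0A, with 99 C0 reads and 28 C1 reads and a log2 ratio of -1.66 (-2.28 to -1.07). L30, which in yeast binds its own mRNA, was a DEU on Unigene24443_A0A, with 29 C0 reads and 3 C1 reads, so that the log2 ratio is given only by its interval of -4.75 to -1.50. The other 8 of the 17 members did not pass the test. Among them, S27 on Unigene47308_A0A had 41 and 12 reads and a log2 ratio of -1.58 (-2.54 to -0.71), with an adjusted p of 0.00388 by the exact binomial test. L24, part of a bridge to the 40S, had 60 and 66 reads on Unigene2997_A0A and a log2 ratio of 0.28 (-0.22 to 0.79).

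The species of the best hit differed between the abundant members and the DEUs. Over all 108 members the best hit was a crustacean for 35, another arthropod for 24, another animal for 32 and a unicellular eukaryote for 17. No abundant member had a unicellular best hit. Of the 9 DEUs, 0 had a crustacean best hit, 1 another arthropod, 3 another animal and 5 a unicellular eukaryote. The 5 unicellular hits were Sorogena for L4, Cryptosporidium for L10, Plasmodium for S14, Capsaspora for L3 and Babesia for L11 (Unigene33560_A0A). By annotation, the label of crab ribosomal proteins therefore does not hold for these 5, and Sorogena is itself a ciliate outside the 6 genera that were left out.

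All 5 members with a unicellular best hit and at least 10 reads were DEUs with a lower level, and their median log2 ratio was -1.97. The medians of the 31 members with a crustacean best hit, the 21 with another arthropod and the 21 with another animal were -0.40, -0.27 and -0.36. The 13 ribosomal proteins left out for a ciliate best hit had 2132 C0 reads and 389 C1 reads. The 10 of them with at least 10 reads had log2 ratios from -2.83 to -1.12, a median of -2.17, and 8 were DEUs with a lower level. Of all ciliate-hit unigenes with at least 100 reads, 84 of 84 had a ratio below 0, with a median of -1.83. The part of RNA from such organisms in the 9 DEUs was not tested. Without the members with a unicellular best hit, 4 DEUs remained, among 35 crustacean, 24 other arthropod and 32 other animal best hits. With arthropod best hits alone, 1 remained among the 35 and 24. Of all unigenes, 1.70% were called with a lower level.

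The summed log2 ratio was -0.34 over members with an arthropod best hit alone, and -0.33 over all.

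Several proteins were named by more than 1 unigene, and their ratios were not always alike. In 12 families, 14 pairs could be formed of the unigene with the most reads and a further one with at least 50 reads. The interval of the further unigene lay wholly below that of the first in 9 pairs, wholly above in 2, and overlapped in 3. The largest gap was in S20, where Unigene20758_A0A had 4781 C0 reads and 2802 C1 reads and a log2 ratio of -0.62 (-0.69 to -0.56), against -2.45 for Unigene43217_A0A. The gap in the other direction was largest in L24, where Unigene20689_A0A had 6389 and 3725 reads and a log2 ratio of -0.63 (-0.69 to -0.57), against 0.28 for Unigene2997_A0A.

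L4, L3 and S14 also had lower ratios on the further unigene, whose best hit was a unicellular eukaryote in these 3 and a fish in S20, so such a pair need not be 2 unigenes of the crab. Their main unigenes had 8472 and 4900 reads (L4, Unigene20693_A0A), 11368 and 9027 reads (L3, Unigene19823_A0A) and 4247 and 2910 reads (S14, Unigene18731_A0A). The log2 ratios were -0.64, -0.19 and -0.40, against -2.03, -1.50 and -1.97 on the further unigenes. L30 was named by 3 unigenes with at least 50 reads. Unigene20973_A0A had 1140 and 1020 reads and a log2 ratio of -0.01 (-0.14 to 0.11), Unigene20974_A0A had 66 and 27 and a log2 ratio of -1.13 (-1.78 to -0.50), and Unigene17580_A0A had 26 and 26 and a log2 ratio of 0.15 (-0.63 to 0.92). The interval of Unigene20974_A0A lay below that of Unigene20973_A0A, which overlapped that of Unigene17580_A0A. Reads were counted only where they mapped to a single place, so unigenes that share sequence can lose reads or divide them. With reads summed for each protein family 0 DEUs were left, since the main unigene holds most of the reads of each family with a DEU.

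**Figure D5:**
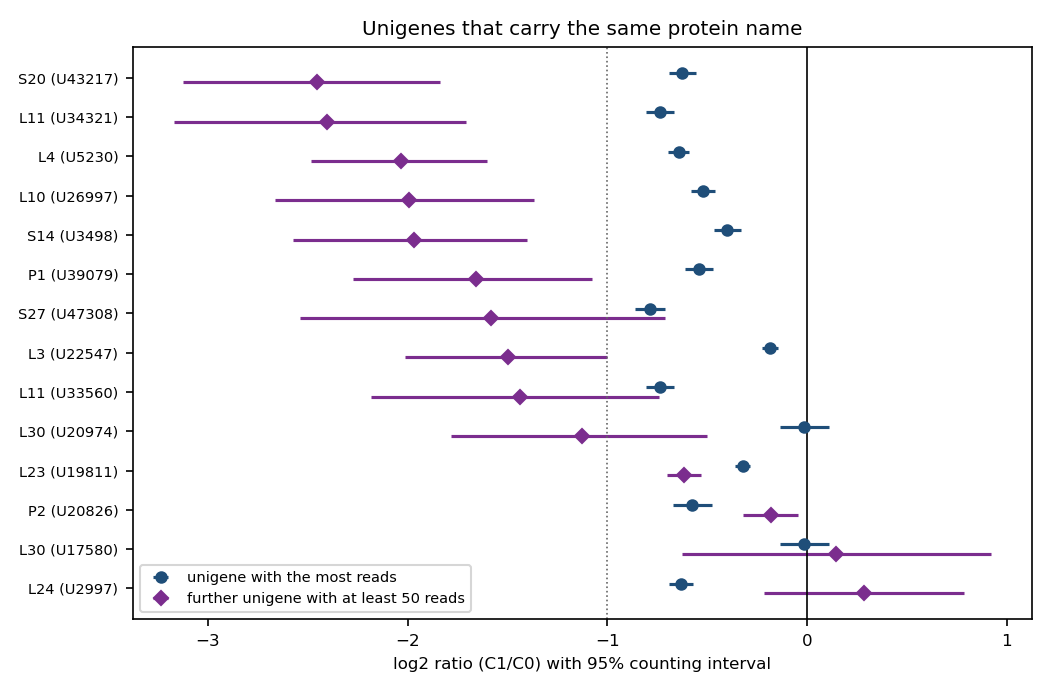
For 14 pairs of unigenes that carry the same protein name, the log2 ratio (C1/C0) with its 95% counting interval is plotted for the unigene with the most reads (circles) and a further one with at least 50 reads (diamonds, number in brackets). The further unigene lies below the first in 11 pairs, with the largest difference in S20 (-1.83), and above it in L24, P2 and 1 pair of L30.

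The proteins of the mitochondrial ribosome, which are made in the cytosol and imported, were measured in the same libraries. The 37 mitochondrial ribosomal protein unigenes had 976 C0 reads and 1288 C1 reads, a log2 ratio of 0.55 (0.43 to 0.67). Of the 36 with at least 10 reads, 26 were above 0 and 10 below, with a median of 0.57. All unigenes with at least 10 reads had a median of 0.15, with 41.3% below 0. For annotated unigenes of that depth that are not members, the median was -0.07, with 53.4% below 0. The summed ratio of the cytosolic members was -0.33 (-0.34 to -0.33), so the intervals of the 2 kinds of ribosome did not overlap. The 2 sums are of unlike depth, since members with at least 1000 reads held 99.6% of the cytosolic C0 reads.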

How the data were processed

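Y-organ RNA was sequenced by the authors as 1 library of C0 and 1 of C1. Clean reads were mapped by the authors with SOAPaligner/soap2 to unigenes of an earlier assembly, and uniquely mapped reads were deposited as the count of each unigene, without normalization. The deposited RPKM was calculated by the authors from the count, the unigene length and the summed counts. The coverage, as deposited, gives how many percent of a unigene lie under reads. The deposited table also holds the authors' own fold changes and p-values, which were not used. The mapper can affect near-identical unigenes, whose reads are lost when a match is not unique.

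Counts were analysed with Python 3.11.15, scipy 1.17.1 and pandas 2.3.3, after a check of the test on simulated data. The simulated counts held no spread between replicates, so the check cannot show how the test behaves with such spread. Each unigene was given an exact binomial test (two-sided) of its split between the libraries, with Benjamini-Hochberg adjustment over all unigenes. The thresholds of a DEU were 0.001 (adjusted p) and 1 (size of the log2 ratio, with 0.5 read added per library). Intervals of shares and ratios are 95% Wilson intervals. For a single unigene, at most 3 reads in 1 library gave an interval and no ratio. Alternatives used edgeR 4.0.16 for TMM factors and for its exact test with an assumed spread.

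The members and lists were chosen with earlier results of these data known. Members named are the 6 with the highest C0 RPKM, the 6 highest and 6 lowest log2 ratios among those with at least 100 reads, every DEU, the unigene with the most reads for SA, S3, S6, S27, P0, P1, P2, L5, L10, L11, L22, L40 and S30, and proteins split over unigenes whose log2 ratios differ by over 1. The kind of species of a best hit was assigned after the annotation was seen.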

Additional observations from a re-analysis of the deposited data

How the results depend on the processing

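With 1 library per group, no difference could be set against a spread between replicates, and low counts limit the members under 1000 reads. No paired analysis was possible either, because each group had 1 library. TMM and median ratio scaling moved the median of all unigenes by -0.17 and -0.15, and leaving out the 10 most abundant unigenes by -0.02. The median log2 ratio of members, -0.38, became -0.55, -0.53 and -0.40 in that order, and the summed ratio, -0.33, became -0.50, -0.48 and -0.35. Each scaling shifts every unigene by 1 constant, so the abundant members lie -0.28 from the median of all abundant unigenes in each by construction. Members called DEU numbered 13, 11 and 10, of which 2, 2 and 1 were abundant. Of the members with at least 100 reads, those beyond 0.5 on the log2 scale numbered 23, and 38 and 36 with TMM and median ratio. All DEUs numbered 1115 higher and 816 lower, 730 and 1053 with TMM, and 757 and 989 with median ratio. With TMM and median ratio, the log2 ratio of Unigene19015_A0A (L39) was -0.15 and -0.12, of Unigene20189_A0A (L29) -0.12 and -0.10, of Unigene20029_A0A (S21) -0.109 and -0.086, of Unigene20618_A0A (S12) -0.072 and -0.049 and of Unigene21127_A0A (L10A) -0.061 and -0.039. That of Unigene17580_A0A (L30) was -0.022 with TMM, where Unigene20974_A0A (L30) became a DEU at -1.30.

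Members called DEU numbered 9 of 108, against 1.70% of all unigenes called with a lower level. With arthropod best hits only, 1 was called among 35 crustacean and 24 other arthropod hits. The number was 0 with reads summed per family (where the abundant unigene holds most reads) and 4 with a log2 threshold of 2. It was 1 and 0 with an assumed coefficient of variation of 0.2 and 0.4, where 194 and 7 of all unigenes were called lower. The median was -0.35 with arthropod best hits and with family sums, -0.44 with at least 1 read and -0.36 with at least 100. The setting with at least 1 read takes in the 30 sparse members, whose ratios depend on the 0.5 read added. The summed ratio was -0.34 with arthropod best hits. Members beyond 0.5 numbered 12 with arthropod best hits and 14 with family sums. The 40S median exceeded the 60S median by 0.063, and by 0.023, 0.10, 0.17 and 0.10 with arthropod best hits, family sums, at least 1 read and at least 100 reads. In alternatives chosen after seeing the data, leaving out unicellular best hits gave 4 DEUs and a median of -0.36, and at least 1000 reads gave a median of -0.34 and a subunit difference of 0.10. Adding ribosomal proteins fused to ubiquitin gave no value, since 0 unigenes carried such a name.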

Other observations

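Other lists drawn from the annotation, named after their values were seen, gave the following values. The 37 unigenes named as translation factors had 138783 C0 reads and 99125 C1 reads, a log2 ratio of -0.34 (-0.35 to -0.33), close to the -0.33 of the ribosomal proteins. Most of these reads belonged to elongation factor 2, which moves the ribosome along the mRNA, and elongation factor 1-alpha, which brings the charged tRNA. Elongation factor 2 (Unigene21006_A0A) had 65220 and 40919 reads and a log2 ratio of -0.53 (-0.54 to -0.51), and elongation factor 1-alpha (Unigene19365_A0A) had 50496 and 36037 reads and a log2 ratio of -0.34 (-0.36 to -0.32). Initiation factor 5A (Unigene18992_A0A) lay on the other side of 0, with 2692 and 4330 reads and a log2 ratio of 0.83 (0.76 to 0.90). None of these 3 reached the fold of a DEU. Of the 37, 1 was a DEU with a higher level and 1 with a lower level, against 2.32% and 1.70% of all unigenes. The higher was Unigene6359_A0A, named elongation factor 1-alpha-like, with 2 and 33 reads and an interval of 2.28 to 6.11. The lower was Unigene50599_A0A, named elongation factor 1 epsilon 1, with 54 and 8 reads and a log2 ratio of -2.53 (-3.66 to -1.56). Over the 32 translation factors with at least 10 reads the median was -0.15, with 21 below 0 and 11 above.

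The 24 unigenes with names of ribosome biogenesis had 1257 C0 reads and 1079 C1 reads, a log2 ratio of -0.07 (-0.19 to 0.04), with 0 DEUs by the exact binomial test. The 9 unigenes named ribosomal protein S6 kinase, which the choice of members leaves out, had 374 and 157 reads, a log2 ratio of -1.11 (-1.37 to -0.84). Their names were of several kinases, with alpha-2, alpha-3-like, alpha-5, beta-1-like and 70 kDa among them, so the sum is not that of 1 kinase. Of the 9 unigenes, 2 were DEUs with a lower level. Unigene54656_A0A, named S6 kinase alpha-2, had 137 C0 reads and 17 C1 reads and a log2 ratio of -2.83 (-3.58 to -2.14). Unigene4208_A0A, named 70 kDa S6 kinase with a best hit in the land crab Gecarcinus lateralis, had 30 and 4 reads and a log2 ratio of -2.61 (-4.20 to -1.32).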
